A study of Mus musculus with 16 samples.

Results

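Claudins are the membrane proteins that form the strands of the tight junction between neighbouring epithelial cells. The claudins a nephron segment makes set which ions and how much water pass between its cells. In the kidney, Cldn2 and Cldn10 serve the proximal tubule, Cldn10, Cldn16 and Cldn19 the thick ascending limb, Cldn3, Cldn4, Cldn7 and Cldn8 the distal nephron and collecting duct, and Cldn1 the parietal epithelium of Bowman's capsule. The 9 genes described here are those claudins, out of 40472 genes in the deposited table, and were picked by symbol through their Ensembl IDs. All 9 passed the filter on low counts that left 13614 genes for testing.

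Expression was measured by sequencing poly(A) RNA from whole kidneys of male C57BL/6 mice, 12 weeks old by the labels, in 16 libraries. Mice with ischemia reperfusion of the kidney, an injury made by cutting off its blood supply for a time, were given PJ34 (IRP) or vehicle (IRV). Mice without the injury were given PJ34 (NP) or vehicle (NV), and each of the 4 groups had 4 libraries. PJ34 inhibits the PARP enzymes, which attach ADP-ribose to proteins after DNA damage, and the design text asks what it does over a longer time. The labels give neither the day of collection nor whether replicates are separate animals, so a p-value here speaks of spread among libraries, which may be technical.

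Total counts were 4963638 to 6169748 in the 4 IRP libraries and IRV 3 and 4, and 973812 to 1659983 in the other 10 libraries, so no NP or NV library had a total like that of any IRP library. Levels are given as CPM, which are counts scaled to library totals adjusted by the TMM method. The 14 proximal tubule markers summed to 7407 to 14980 CPM in IRP and 6936 to 10750 in IRV. They summed to 16680 to 19390 CPM in NP and 16490 to 18410 in NV, with no marker at 0 in any group. All 7 urothelial markers, which would come from the renal pelvis, failed the filter and summed to 9.26 to 19.7 CPM in IRP, 6.27 to 15.2 in IRV, 2.98 to 12.5 in NP and 3.601 to 8.61 in NV, with Upk2 and Upk3a at 0 in NP and NV. Their part in the claudin results was not tested.

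Injured kidneys held a different mix of claudins from uninjured kidneys, with or without PJ34. In IRV against NV, Cldn1, Cldn3, Cldn4, Cldn7 and Cldn19 rose, by 2.0-fold to 5.9-fold. Cldn2 and Cldn10 fell in that comparison by 0.61 and 0.43 on the log2 scale, and neither passed the test when library totals were the only scaling, which put Cldn2 at -0.10 and Cldn10 at 0.08. In IRP against NP the same 5 genes rose, by 2.5-fold to 6.0-fold, and Cldn2 fell by 0.51, against 0.06 under library totals. Cldn8 and Cldn16 did not pass in either comparison. In bulk tissue, fewer cells of a type and less RNA per cell cannot be told apart.

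These calls are from the quasi-likelihood test of edgeR with an adjusted p threshold of 0.05 over all tested genes. In IRV against NV, 7 of the 9 claudins were called, 5 higher and 2 lower, where 27.0% of all tested genes were called, 15.9% higher and 11.1% lower. In IRP against NP, 6 of 9 were called, 5 higher and 1 lower, where the background was 43.6%, with 19.6% higher and 24.0% lower. The groups did not overlap for 7 of 9 claudins in IRV against NV, where the background was 26.9%, and for 6 of 9 in IRP against NP, where it was 40.8%. Scaled by library totals alone, the split was 5 higher and 0 lower in IRV against NV and 7 higher and 0 lower in IRP against NP. With no filter on low counts the claudin split was 5 and 0 in IRV against NV and 6 and 0 in IRP against NP. Over all genes, 3724 and 16733 were then called in either direction. Those settings also moved the median of all tested genes, to 0.49 and 0.29 in IRV against NV, where it was -0.03, and to 0.57 and 0.42 in IRP against NP, where it was -0.01. Measured from that median, Cldn2 stood at -0.59 under both settings in IRV against NV, where it was -0.58 with TMM scaling. In IRP against NP it stood at -0.51 with library totals and -0.50 without the filter. Such settings shift all genes by about the same amount, so this match was fixed in advance and does not test the fall of Cldn2. Cldn1 likewise stood at 2.60 with TMM scaling, 2.60 with library totals and 2.59 without the filter in IRV against NV.

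**Figure D1:**
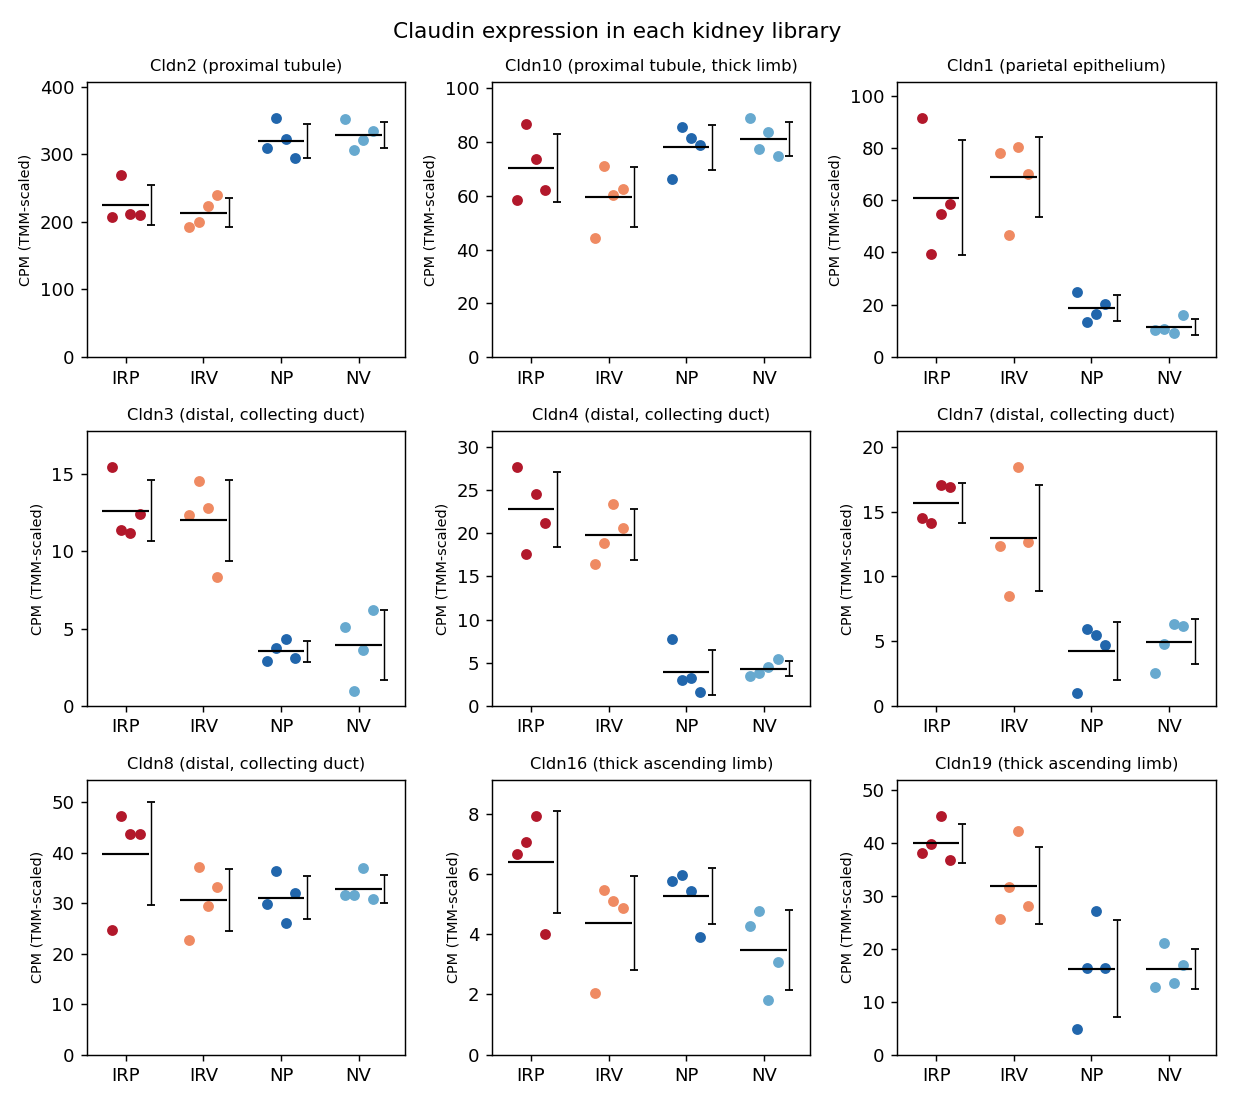
Level of each claudin in CPM, scaled by the TMM method, in every library of the 4 groups, with the group mean as a line and the standard deviation as a bar. All 8 injured libraries lie above all 8 uninjured ones for Cldn1, Cldn3, Cldn4 and Cldn7, and below them for Cldn2, an order that rests on this scaling, since Cldn2 stood at -0.10 in IRV against NV and 0.06 in IRP against NP with library totals.

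Claudin-2 is a pore for cations and water, and in uninjured kidneys its gene had the highest level of the 9. Cldn2 had 208, 269.6, 212 and 209 CPM in IRP and 192, 199, 224 and 239 CPM in IRV. It had 308, 353, 323 and 294 CPM in NP and 351, 306, 321 and 334 CPM in NV. The injured and uninjured groups did not overlap on this scaling, and IRP 2 lay above the other 3 IRP libraries. The mean was 224.7 ± 30.0 CPM in IRP and 213.7 ± 21.8 in IRV, against 319.8 ± 25.2 in NP and 328.3 ± 19.3 in NV (SD, n = 4 each). The log2 difference of IRV from NV was -0.61 ± 0.11 (SE, edgeR adjusted p = 0.000943), and that of IRP from NP was -0.51 ± 0.11 (edgeR adjusted p = 0.00192). With library totals Cldn2 stood at -0.10 in IRV against NV (adjusted p = 0.609) and at 0.06 in IRP against NP (adjusted p = 0.736), and without the filter at -0.31 (0.287) and -0.07 (0.749).

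Claudin-10 forms an anion pore in the proximal tubule and a cation pore in the thick limb through different first exons, which a count per gene does not separate. Cldn10 had 58.5, 86.6, 73.7 and 62.3 CPM in IRP and 44.2, 71.1, 60.3 and 62.7 CPM in IRV. It had 66.3, 85.5, 81.6 and 78.9 CPM in NP and 88.9, 77.5, 83.7 and 74.9 CPM in NV. Every IRV library lay below every NV library, while IRP and NP overlapped. The log2 difference of IRV from NV was -0.43 ± 0.15 (edgeR adjusted p = 0.0406), and with library totals it was 0.08 (0.698). The call was also lost without IRV 1 (-0.34, adjusted p = 0.0754), IRV 3 (-0.48, 0.0718), NV 1 (-0.44, 0.08), NV 2 (-0.45, 0.0653) or NV 3 (-0.48, 0.0642). IRP against NP gave -0.16 ± 0.14 (0.406), which became 0.41 (0.0359) with library totals.

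Claudin-1 is a barrier-forming claudin of the parietal epithelium, the cells that line the outer wall of the glomerular capsule. Cldn1 had 91.4, 39.5, 54.6 and 58.4 CPM in IRP and 78.1, 46.8, 80.2 and 69.8 CPM in IRV. It had 25.0, 13.4, 16.3 and 20.3 CPM in NP and 10.3, 10.5, 9.003 and 16.2 CPM in NV. The lowest injured library, IRP 2, lay above the highest uninjured library, NP 1. The gene was 5.92-fold higher in IRV than in NV, a log2 difference of 2.57 ± 0.30 (edgeR adjusted p = 2.03e-05). It was 3.28-fold higher in IRP than in NP, 1.71 ± 0.27 on the log2 scale (edgeR adjusted p = 0.000218). The 6 podocyte markers, from the other epithelium of the same capsule, moved alongside: 5 of 6 rose in each comparison, with medians of 0.83 in IRV against NV and 0.76 in IRP against NP. Over all tested genes, 15.9% were called higher in IRV against NV and 19.6% in IRP against NP. Podocyte markers summed to 766 to 831 CPM in IRP and 648 to 953 in IRV, against 443 to 471 in NP and 424 to 502 in NV. Whether the podocyte share of the sample bears on Cldn1 was not tested.

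Claudin-3, claudin-4 and claudin-7 are sealing claudins of the distal nephron and collecting duct, and claudin-4 with claudin-8 also forms a chloride path there. Cldn4 had the largest difference of the 3 in both comparisons. It had 27.7, 17.6, 24.5 and 21.2 CPM in IRP and 16.4, 18.8, 23.4 and 20.6 CPM in IRV. It had 7.69, 2.98, 3.26 and 1.56 CPM in NP and 3.42, 3.83, 4.50 and 5.41 CPM in NV. All injured libraries were above all uninjured ones. The gene was 6.05-fold higher in IRP than in NP, 2.60 ± 0.30 on the log2 scale (edgeR adjusted p = 1.84e-05). In IRV against NV it was 4.67-fold higher, or 2.23 ± 0.30 (edgeR adjusted p = 6.72e-05). Uninjured libraries held between 2 and 8 counts of Cldn4 each.

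Cldn3 had 15.5, 11.4, 11.2 and 12.5 CPM in IRP and 12.3, 14.6, 12.8 and 8.31 CPM in IRV. It had 2.88, 3.72, 4.35 and 3.12 CPM in NP and 5.13, 0.956, 3.601 and 6.18 CPM in NV. No injured library fell among the uninjured ones, although each uninjured library held only 1 to 8 counts. Cldn3 differed by 1.84 ± 0.34 in IRP against NP (edgeR adjusted p = 0.000562) and by 1.52 ± 0.34 in IRV against NV (edgeR adjusted p = 0.00357). By limma-voom the direction held but neither passed, at 1.71 (adjusted p = 0.0509) in IRP against NP and 1.43 (adjusted p = 0.112) in IRV against NV.

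Cldn7 had 14.5, 14.1, 17.03 and 16.9 CPM in IRP and 12.3, 8.51, 18.5 and 12.7 CPM in IRV. It had 0.961, 5.95, 5.44 and 4.69 CPM in NP and 2.56, 4.78, 6.30 and 6.18 CPM in NV. The groups did not overlap, and NP 1, with a single count, was the lowest. The log2 difference was 1.84 ± 0.34 in IRP against NP (edgeR adjusted p = 0.000565) and 1.43 ± 0.34 in IRV against NV (edgeR adjusted p = 0.00546).

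The stretch upstream of the start site is shown for 4 of the 5 genes that rose in both comparisons. The fifth, Cldn19, had 2 windows, which held neither of the motifs marked. RefSeq promoter windows on GRCm38.p6 were matched for 8 of the 9 claudins, some with more than 1 start, in 11 windows. Each sequence below is the 250 bases before the start, 5' to 3' on the gene's strand, from chr5:134946935-134947184 (minus strand) for Cldn4, chr5:134985964-134986213 (plus strand) for Cldn3, chr11:69965171-69965420 (plus strand) for the second start of Cldn7 and chr16:26371840-26372089 (minus strand) for Cldn1. Capitals mark the E-box CAGGTG, which repressors of the Snail and Zeb families bind, and the AP-1 element TGANTCA, where Fos and Jun proteins bind, both searched on either strand and with no overlap between them.
Cldn4: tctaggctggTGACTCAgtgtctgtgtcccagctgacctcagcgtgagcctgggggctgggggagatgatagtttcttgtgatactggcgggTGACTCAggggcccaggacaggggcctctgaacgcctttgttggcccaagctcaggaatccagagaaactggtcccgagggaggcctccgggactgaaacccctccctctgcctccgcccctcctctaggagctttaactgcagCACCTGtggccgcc
Cldn3: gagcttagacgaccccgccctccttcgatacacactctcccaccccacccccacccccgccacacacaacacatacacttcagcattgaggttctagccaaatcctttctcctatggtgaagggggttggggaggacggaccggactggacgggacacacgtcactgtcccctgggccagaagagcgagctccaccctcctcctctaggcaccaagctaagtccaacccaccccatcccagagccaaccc
Cldn7: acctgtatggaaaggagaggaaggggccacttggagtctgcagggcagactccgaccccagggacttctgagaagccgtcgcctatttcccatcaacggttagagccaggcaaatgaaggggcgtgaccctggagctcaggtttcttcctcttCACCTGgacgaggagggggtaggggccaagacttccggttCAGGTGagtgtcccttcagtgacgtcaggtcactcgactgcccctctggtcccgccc
Cldn1: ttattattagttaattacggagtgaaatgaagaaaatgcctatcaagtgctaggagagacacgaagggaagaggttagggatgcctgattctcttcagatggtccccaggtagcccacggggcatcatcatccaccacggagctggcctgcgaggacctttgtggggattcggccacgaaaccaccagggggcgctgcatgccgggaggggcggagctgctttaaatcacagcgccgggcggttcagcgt
Cldn4 held an E-box at -14 to -9 and AP-1 elements at -240 to -234 and -158 to -152, counted from the start site. The second start of Cldn7 held E-boxes at -97 to -92 and -57 to -52. The windows of Cldn3 and Cldn1 held neither. The E-box was present in 2 of the 11 claudin windows and in 17.2% of the 32851 RefSeq windows of that length, and the AP-1 element in 1 of 11 and in 6.75% of all windows. These matches are letters in a window, with no measurement of binding. Cldn3 and Cldn4 lie near each other on chromosome 5, on opposite strands.

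Claudin-8, also of the distal nephron and collecting duct, did not pass the test in either injury comparison. Cldn8 had 24.7, 47.3, 43.8 and 43.6 CPM in IRP and 22.6, 37.1, 29.4 and 33.3 CPM in IRV. It had 29.8, 36.4, 26.1 and 32.02 CPM in NP and 31.6, 31.6, 36.9 and 30.9 CPM in NV. Injured and uninjured groups overlapped, and IRP 1 lay well below the other IRP libraries. IRV differed from NV by -0.07 (95% interval -0.50 to 0.35), which turned to 0.44 (adjusted p = 0.0794) with library totals and 0.25 (0.496) without the filter. IRP against NP gave 0.34 (95% interval -0.07 to 0.75, edgeR adjusted p = 0.168). That value passed without IRP 1 (0.53, adjusted p = 0.01), with library totals (0.90, adjusted p = 0.000786) and without the filter (0.78, adjusted p = 0.00465).

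Claudin-16 and claudin-19 act together in the thick ascending limb, where they carry the reabsorption of calcium and magnesium between cells. Cldn19 had 38.1, 39.9, 45.1 and 36.7 CPM in IRP and 25.7, 31.6, 42.2 and 28.0 CPM in IRV. It had 4.80, 16.4, 27.2 and 16.4 CPM in NP and 12.8, 21.0, 13.5 and 16.99 CPM in NV. IRP did not overlap with NP, nor IRV with NV, although NP 3 exceeded the lowest IRV library. Cldn19 was 2.49-fold higher in IRP than in NP (log2 difference 1.32 ± 0.27, edgeR adjusted p = 0.00112) and 2.03-fold higher in IRV against NV (1.02 ± 0.28, edgeR adjusted p = 0.012). The IRV call was lost without IRV 3 (0.78, adjusted p = 0.073), NV 1 (0.87, 0.0577) or NV 3 (0.88, 0.055).

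Its partner Cldn16 had 6.65, 7.07, 7.93 and 3.99 CPM in IRP and 2.06, 5.47, 5.11 and 4.86 CPM in IRV. It had 5.77, 5.95, 5.44 and 3.90 CPM in NP and 4.27, 4.78, 1.80 and 3.09 CPM in NV. The groups overlapped in both comparisons. The log2 difference was 0.29 (95% interval -0.51 to 1.09, edgeR adjusted p = 0.569) in IRP against NP and 0.40 (95% interval -0.48 to 1.28, edgeR adjusted p = 0.496) in IRV against NV. With 2 to 8 counts in each uninjured library, these intervals still hold differences as large as that of Cldn19 in IRV against NV.

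Several of these calls changed when libraries were set apart by their total count. The NV libraries and IRV 1 and 2 share the smaller totals, which allows IRV against NV to be compared within them. There, Cldn1 (2.37, adjusted p = 1.08e-05), Cldn3 (1.71, 0.044) and Cldn4 (2.01, 0.00911) were called higher and Cldn2 lower (-0.75, 0.00234). Cldn7 (1.02, 0.31), Cldn10 (-0.45, 0.133) and Cldn19 (0.85, 0.139) kept their sign and did not pass, and Cldn16 was not tested there. With the set of totals as a covariate, the same 4 genes were called in IRV against NV. The other 3 had edgeR adjusted p-values of 0.132 for Cldn7, 0.132 for Cldn10 and 0.109 for Cldn19. Calls over all genes were 1807 within the smaller totals and 1915 with the covariate, where they were 3673 before. The standard error of Cldn7 went from 0.34 to 0.58 within the smaller totals and to 0.43 with the covariate. Fewer libraries and an effect of total cannot be told apart here. Only IRV holds libraries of both sets, so that covariate rests on IRV 1 and 2 against IRV 3 and 4. In IRP against NP its values borrow that difference from vehicle libraries. There it left Cldn4 (2.30, 0.00826), Cldn3 (2.22, 0.0199) and Cldn2 (-0.75, 0.0375). Cldn1 (1.41, 0.0687), Cldn7 (1.22, 0.208) and Cldn19 (1.05, 0.186) no longer passed. IRP and NP share no range of totals, so total and injury cannot be told apart within that pair.

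**Figure D2:**
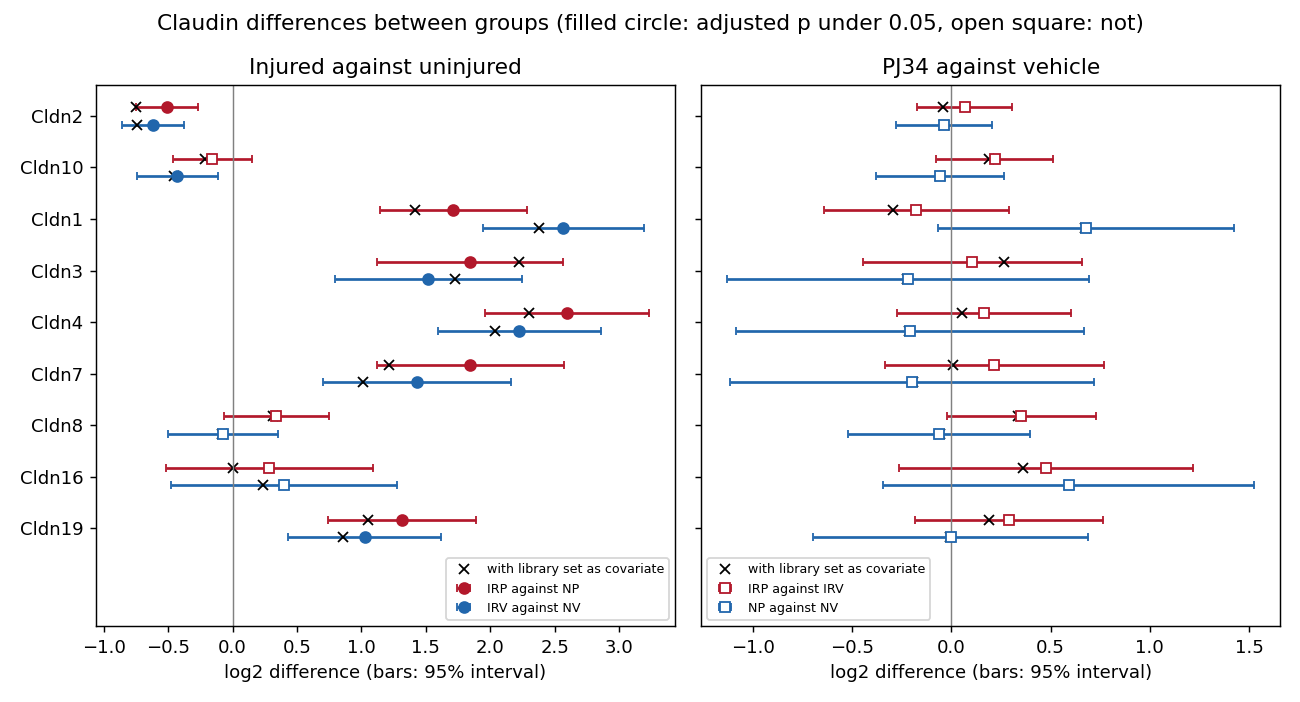
Log2 difference of each claudin between groups from the edgeR fit, with 95% intervals as bars. Filled circles passed an adjusted p of 0.05, open squares did not, and crosses are the same differences with the set of library totals as a covariate. That covariate is estimated from the IRV libraries alone. Cldn1, Cldn3, Cldn4, Cldn7 and Cldn19 lie to the right in both injury comparisons and every PJ34 comparison has an interval that includes 0. Cldn2 and Cldn10 lie to the left, but with library totals Cldn2 stood at -0.10 in IRV against NV and 0.06 in IRP against NP, and Cldn10 at 0.08 and 0.41.

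PJ34 made no claudin pass the test. In IRP against IRV, 0 of 9 were called by edgeR, as by DESeq2 and limma-voom, and 0 had an unadjusted p under 0.05, where the background was 0 of 13614 genes by edgeR, 0 by limma-voom and 1282 by DESeq2, with 1832 genes at an unadjusted p under 0.05. Without IRV 3, or without IRV 4, edgeR called 1460 genes, of which 0 were claudins. Cldn8 had the lowest adjusted p, 0.431, with 39.8 ± 10.3 CPM in IRP and 30.6 ± 6.17 CPM in IRV (SD, n = 4 each) and a log2 difference of 0.35 (95% interval -0.02 to 0.73). The other intervals were -0.64 to 0.29 for Cldn1, -0.17 to 0.30 for Cldn2, -0.27 to 0.60 for Cldn4 and -0.18 to 0.76 for Cldn19. They were -0.45 to 0.66 for Cldn3, -0.33 to 0.77 for Cldn7 and -0.08 to 0.51 for Cldn10. The widest was that of Cldn16, at -0.26 to 1.22. No claudin separated the groups, where 3.42% of tested genes did. In 8 of 9 claudins the difference was above 0, with a median of 0.22, where the median of all genes was 0.02. Segment markers lay above 0 in that comparison too, 14 of 14 for the proximal tubule (median 0.22), 10 of 10 for the thick ascending limb (0.37), and 9 of 10 each for principal cells (0.31) and intercalated cells (0.31).

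In uninjured kidneys, NP against NV likewise gave 0 of 9 by all 3 tools and 0 at an unadjusted p under 0.05, where edgeR and limma-voom called 0 of 13614 genes, DESeq2 called 4 and 501 had an unadjusted p under 0.05. No claudin separated NP from NV, where 2.43% of tested genes did. Cldn1 came nearest, with 18.8 ± 5.03 CPM in NP and 11.5 ± 3.21 CPM in NV (SD, n = 4 each), a difference of 0.68 ± 0.35 (95% interval -0.07 to 1.43, unadjusted p = 0.0723, edgeR adjusted p = 1). Cldn2 differed by -0.04 (95% interval -0.28 to 0.20). Cldn3, Cldn4 and Cldn7 had wider intervals, of -1.13 to 0.69, -1.08 to 0.67 and -1.11 to 0.72, at 1 to 8 counts a library. The test of whether injury acted differently with PJ34 and with vehicle called 0 of 9 claudins, with 0 at an unadjusted p under 0.05. For Cldn1 this interaction was -0.85 ± 0.42 (unadjusted p = 0.0566, edgeR adjusted p = 0.458). Over all genes that test called 0 by edgeR and limma-voom and 22 by DESeq2, and 1550 had an unadjusted p under 0.05. Without IRV 3 it called 419 genes and 0 claudins by edgeR.

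With TMM scaling the summed level of the 9 claudins overlapped between groups. The sum was 465 to 533 CPM in IRP, 406 to 496 in IRV, 452 to 524 in NP and 461 to 510 in NV. Scaled by library totals alone, an alternative added after seeing the data, the sum was 565 to 667 in IRP, against 346 to 429 in NP, with no overlap, and 406 to 651 in IRV, against 346 to 424 in NV, with overlap. Shares of that sum, taken per kilobase of the longest coding transcript, do not depend on how libraries are scaled to each other. Cldn2 made up 38.4 ± 3.13% in IRP and 40.4 ± 2.21% in IRV, against 59.3 ± 1.45% in NP and 60.05 ± 0.92% in NV (SD, n = 4 each). Cldn1, Cldn3, Cldn4 and Cldn7 together made up 27.9 ± 6.32% in IRP and 29.6 ± 4.21% in IRV, against 7.88 ± 0.898% in NP and 7.10 ± 1.80% in NV. For both shares, every injured library lay outside the range of the uninjured ones. The 4 pooled genes were grouped after their levels were seen, and each already separated injured from uninjured libraries, so this separation is no further support. Shares of 1 sum also move against each other, so a lower share of Cldn2 does not by itself show a fall of Cldn2. The share of Cldn10 was 17.1 ± 2.20% in IRP and 16.1 ± 2.65% in IRV, against 20.7 ± 1.41% in NP and 21.3 ± 1.34% in NV, with overlap between injured and uninjured libraries. Cldn8 held between 5.58% and 10.2% in every library. Cldn16 and Cldn19 together had 7.83 ± 0.994% in IRP and 6.49 ± 1.13% in IRV, against 4.70 ± 1.06% in NP and 3.83 ± 1.14% in NV.

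**Figure D3:**
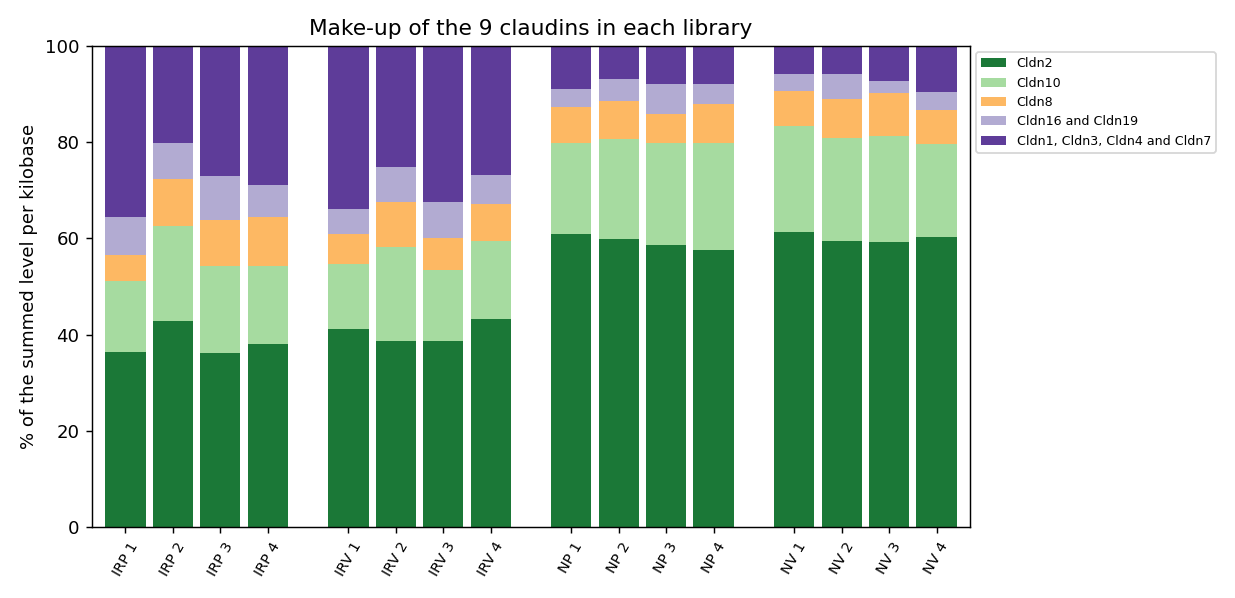
Share of each claudin or group of claudins in the summed level per kilobase of the 9 genes, in percent, with 1 stacked bar for each library. Cldn2 takes 36.2 to 42.9% in IRP and 38.6 to 43.2% in IRV, against 57.7 to 61.0% in NP and 59.2 to 61.3% in NV, and Cldn1, Cldn3, Cldn4 and Cldn7 together take 20.1 to 35.5% in IRP and 25.2 to 33.96% in IRV, against 6.79 to 8.99% in NP and 5.73 to 9.60% in NV.

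Per kilobase, Cldn2 stood first and Cldn10 second in all 4 groups, at 107.9 ± 6.32 and 38.2 ± 2.97 CPM per kilobase in NV. In IRV the next was Cldn1 with 21.2 ± 4.71 CPM per kilobase, in IRP Cldn1 with 18.8 ± 6.73, in NP Cldn8 with 13.2 ± 1.84 and in NV Cldn8 with 13.9 ± 1.19. The remaining 6 genes in NV lay between 2.36 and 3.86 CPM per kilobase and each differed from the next in that order by less than the larger of the 2 SDs. In IRV, Cldn8, Cldn4, Cldn7, Cldn3 and Cldn19 lay between 7.65 and 13.0 CPM per kilobase, again with neighbours closer than the larger SD, and Cldn16 was last at 3.73 ± 1.34. These levels depend on the transcript chosen, since the coding transcripts of Cldn2 run from 290 to 3044 bases and those of Cldn19 from 924 to 4168.

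The 8 claudins other than Cldn1 were also set against the markers of their own segment within the same library, Cldn10 against both of its segments, which again needs no scaling between libraries. Of 14 proximal tubule genes, 13 were lower in IRV than in NV and 11 lower in IRP than in NP, with medians of -0.97 in IRV against NV and -0.81 in IRP against NP. Over all tested genes, 11.1% were called lower in IRV against NV and 24.0% in IRP against NP. Slc13a3, a dicarboxylate transporter, differed by -1.22 in IRV against NV (edgeR adjusted p = 2.79e-05) and -1.10 in IRP against NP (5.62e-05). Relative to that list, Cldn2 was 0.37 higher on the log2 scale in IRV than in NV, with no overlap, and 0.29 higher in IRP than in NP, with overlap, or 0.18 without IRP 1. Cldn10 was 0.53 higher in IRV than in NV and 0.64 higher in IRP than in NP, both without overlap. Against the thick ascending limb list, Cldn10 differed by 0.15 in IRV against NV and 0.13 in IRP against NP, with overlap in both. These were 0.08 in IRV against NV without NV 4, and -0.08 without IRP 1 and 0.22 without IRP 4 in IRP against NP.

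In the thick ascending limb, 3 of 10 markers were lower in IRV than in NV and 1 of 10 in IRP than in NP. That is 30% in IRV against NV, beside 11.1% of all genes called lower, and 10% in IRP against NP, below the 24.0% of all genes. Egf, the epidermal growth factor precursor, was lower in both, by -1.64 in IRV against NV (edgeR adjusted p = 0.00436) and -1.22 in IRP against NP (0.0147). Slc12a1, the salt cotransporter of the segment, stood at -0.12 in IRV against NV and 0.24 in IRP against NP, neither past the test. Cldn19 was 1.57 higher relative to this list in IRV than in NV and 1.78 higher in IRP than in NP, without overlap. Cldn16 was 0.89 higher in IRV than in NV and 0.53 higher in IRP than in NP, with overlap, and 0.21 without IRP 1.

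Principal cells of the collecting duct had 10 tested markers, of which 2 fell in IRV against NV, while 1 rose and 1 fell in IRP against NP. That is 20% of the list in each comparison, below the 27.0% of all genes called in IRV against NV and the 43.6% in IRP against NP. The water channel Aqp4 showed the lowest values, -3.54 in IRV against NV (edgeR adjusted p = 6.13e-05) and -3.32 in IRP against NP (3e-05). Relative to this list, Cldn4 was 2.63 higher in IRV than in NV and 2.93 higher in IRP than in NP. Cldn3 was 2.20 and Cldn7 1.87 higher in IRV than in NV, and 2.08 and 2.32 higher in IRP than in NP, all without overlap. Cldn8 was 0.45 higher in IRV than in NV, with overlap, and 0.71 higher in IRP than in NP, without it. The list level is a mean over the markers, which Aqp4 pulls down. The median marker stood at -0.42 in IRV against NV and -0.07 in IRP against NP, with 4 of 10 above 0 in each. Cldn8 itself stood at 0.34 in IRP against NP and was not called. How much of its relative difference comes from Aqp4 was not tested. Of 5 distal convoluted tubule markers, 3 fell in each comparison, or 60%, where 11.1% of all genes were called lower in IRV against NV and 24.0% in IRP against NP. Of 10 intercalated cell markers none passed in IRV against NV and 3 rose in IRP against NP. That is 30%, beside 19.6% of all genes called higher in IRP against NP. The thin limb list had 5 tested markers, of which 2 rose in each comparison and 1 fell in IRV against NV. That is 60% called in IRV against NV, beside 27.0% of all genes, and 40% in IRP against NP, near the 43.6% of all genes.

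**Figure D4:**
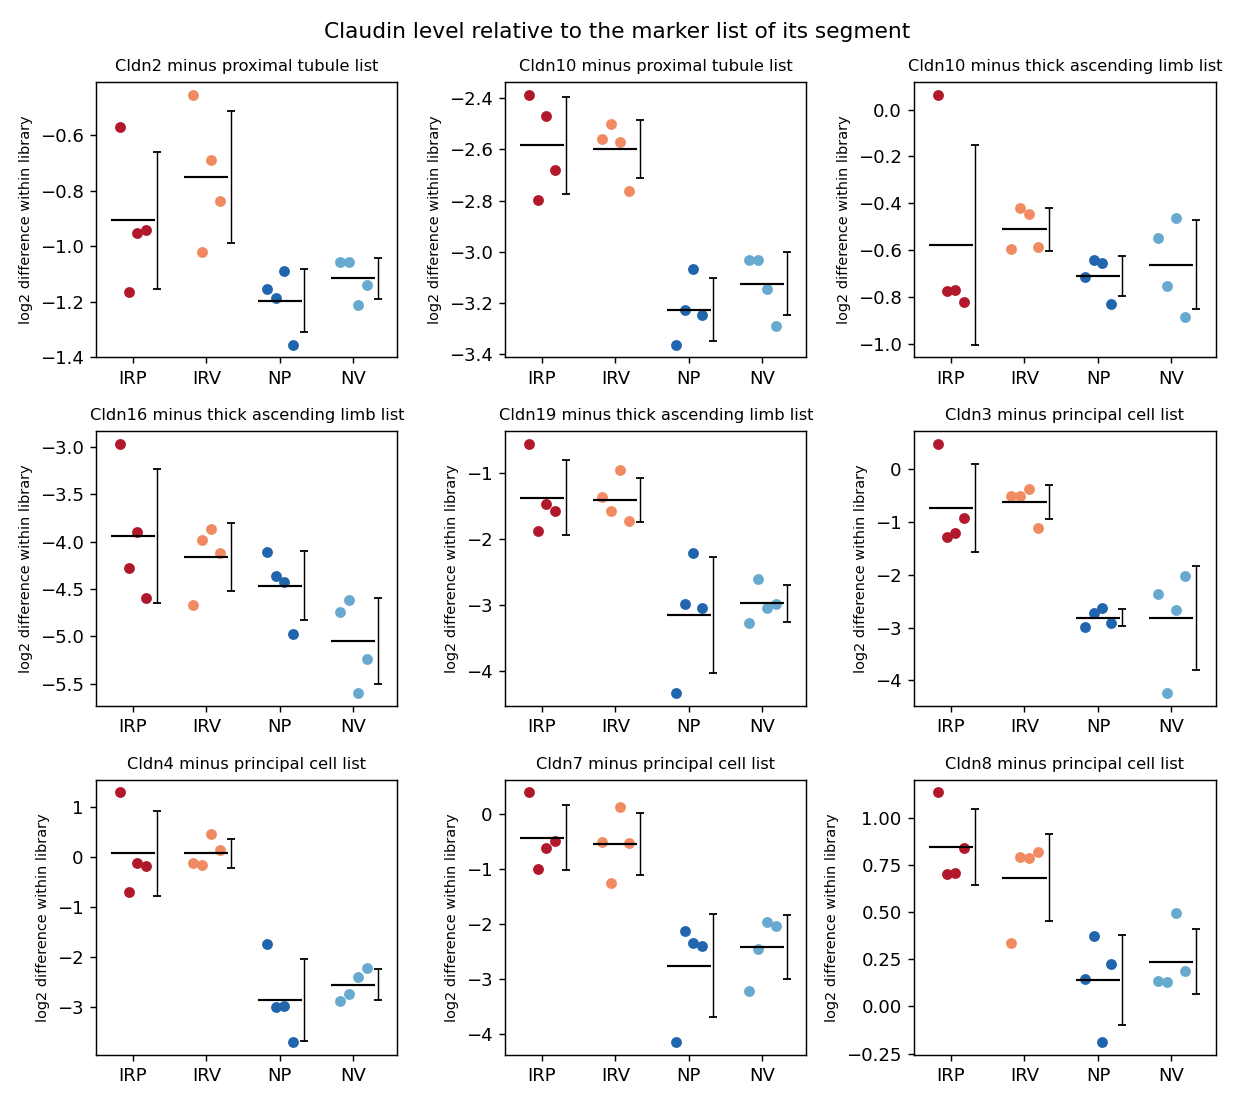
Log2 level of 8 claudins, without Cldn1, minus the mean log2 level of the markers of their segment in the same library, by group, with Cldn10 shown against 2 lists, and with the mean as a line and the standard deviation as a bar. For Cldn3, Cldn4, Cldn7 and Cldn19 the injured groups lie above their uninjured counterparts by 1.57 to 2.93 with no overlap, and IRP 1 is the highest point of IRP in all 9 panels.

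Markers of injured tubule cells rose in the same comparisons as the claudins that rose. Of 16 such genes 15 were called higher in each comparison, with medians of 2.25 in IRV against NV and 2.13 in IRP against NP. Over all genes, 15.9% were called higher in IRV against NV and 19.6% in IRP against NP. The summed level of the injured tubule markers was 2814 to 5094 CPM in IRP and 3473 to 4623 in IRV, against 911 to 1002 in NP and 849 to 1080 in NV, with no marker at 0. Within IRP, the library with the highest mean log2 level of this list, IRP 1 at 6.65, had the most Cldn1, 91.4 CPM. The lowest, IRP 2 at 5.56, had the least Cldn1, 39.5 CPM, and the most Cldn2, 269.6 CPM. In IRV the order differed for Cldn2, since IRV 2, lowest in this list at 5.93, had 199 CPM and IRV 3, highest at 6.51, had 224 CPM. The other claudins that rose did not all follow this order. IRP 1 had the most Cldn3 (15.5 CPM) and Cldn4 (27.7 CPM) of IRP. It did not have the most Cldn7 (14.5 CPM) or Cldn19 (38.1 CPM), and IRV 2 had the most Cldn3 of IRV (14.6 CPM). IRP 1 also had the lowest principal cell level, 3.52, where the other 3 IRP libraries had 4.63 to 4.88. Macrophage and fibroblast markers rose as well, 6 of 6 of each in both comparisons, beside the same 15.9% and 19.6% of all genes. Macrophage markers summed to 327 to 829 CPM in IRP and 425 to 724 in IRV, against 54.8 to 114 in NP and 56.4 to 77.8 in NV. Fibroblast markers summed to 884 to 2335 CPM in IRP and 1252 to 1955 in IRV, against 259.6 to 358 in NP and 146 to 340.3 in NV. The part of these cells in the claudin results was not tested.

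The claudins work with scaffolds and other membrane proteins of the tight junction. Of 26 such genes, all tested, 9 rose and 3 fell in IRV against NV, and 11 rose and 0 fell in IRP against NP. That is 46.2% of the list in IRV against NV, where 27.0% of all tested genes were called, and 42.3% in IRP against NP, near the 43.6% of all genes. All 11 called in IRP against NP were higher, where 19.6% of all genes were called higher and 24.0% lower. The list had medians of 0.26 and 0.25 where the medians of all genes were -0.03 and -0.01. Tjp1, the scaffold ZO-1 to which claudins bind, rose by 0.99 in IRV against NV (edgeR adjusted p = 9.33e-05) and 1.06 in IRP against NP (4.3e-05). Jam2, a junctional adhesion molecule also made by endothelium, differed by 2.06 (0.000522) in IRV against NV and 1.70 (0.000836) in IRP against NP. Epcam, whose protein binds claudin-7, differed by 1.13 (0.000561) in IRV against NV and 1.44 (5.37e-05) in IRP against NP. Tjp3, the scaffold ZO-3, was 1.64 higher (0.000777) in IRP than in NP and stood at 0.44 (0.283) in IRV against NV, a difference between the comparisons that was not called.

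Among 17 tested regulators of claudins, 4 rose and 6 fell in IRV against NV, and 5 rose and 3 fell in IRP against NP. That is 58.8% in IRV against NV, beside 27.0% of all genes, and 47.1% in IRP against NP, near the 43.6% of all genes. Zeb2, a repressor that binds E-boxes, differed by 1.28 in IRV against NV (edgeR adjusted p = 0.000145) and by 1.18 in IRP against NP (0.000213). Hnf4a, a transcription factor of the proximal tubule, was lower, at -0.89 in IRV against NV (0.000567) and -0.67 in IRP against NP (0.00255). St14, which encodes the protease matriptase that cleaves EpCAM, differed by 1.24 in IRP against NP (0.000207) and 0.83 in IRV against NV (0.00459). In IRP against IRV and in NP against NV, 0 genes of any of these lists were called.

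Of 21 other claudin genes in the table, 4 passed the filter. Cldn12 had 70.2 ± 18.4 CPM in IRP and 61.3 ± 11.1 in IRV, against 89.1 ± 4.68 in NP and 101.6 ± 8.55 in NV (SD, n = 4 each). Against NV, IRV stood lower, at -0.71 ± 0.16 (edgeR adjusted p = 0.00393), and at -0.34 ± 0.16 in IRP against NP it did not pass (0.0909). Cldn5, the claudin of endothelium, stood at 1.07 in IRP against NP (0.0734) and 0.65 in IRV against NV (0.306), and Cldn15 at 0.78 (0.14) in IRP against NP and 1.19 (0.058) in IRV against NV. Cldn34c1 was lower in both, at -2.58 in IRP against NP (0.000251) and -1.19 in IRV against NV (0.0472), with 14 to 40 counts in every library whatever its total.

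For each claudin, the genes with the nearest profile over the 16 libraries were found by the root mean square difference of centred log2 CPM, among about 9906 other genes. Those nearest to Cldn1 were Sytl2 (0.30) and Loxl2 (0.32), where the SD of Cldn1 itself was 1.16. Cldn4 was nearest to Itgax (0.35) and Muc1 (0.37), and Cldn3 to Sh3pxd2a and Gbp2 (0.33 each). Cldn7 lay nearest to Efemp1 (0.37) and then to Cldn19 (0.38), and Efemp1 was also the gene nearest to Cldn19 (0.28), followed by Pnrc1 (0.31). Cldn2 was nearest to Atp6v1d and Xpr1 (0.11 each), Cldn10 to Jmjd8 and Rab5c (0.11 each), Cldn8 to Nudt4 (0.12) and Aif1l (0.16), and Cldn16 to Mknk2 (0.31) and Eif2b2 (0.32).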

How the data were processed

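Poly(A) RNA of 16 whole-kidney libraries was sequenced after preparation with a directional kit, per the labels' protocols. The authors deposited estimated counts, 1 value a gene and library, without normalisation. Salmon 1.3.0, Trim Galore 0.6.6, FastQC 0.11.3 and DESeq2 1.30.1 are named with the build GRCm39, per the submitters' processing notes. For use of molecular identifiers in counting, the answer was not given in the sources used here. Rounding to whole numbers changed no value.

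Symbols were matched for 40276 of 40472 Ensembl IDs through an annotation of the older build GRCm38, so gene coordinates come only from the RefSeq windows. Of 2 IDs with the symbol Igsf5, the first was used. Genes were kept by filterByExpr at a minimum count of 10 and scaled by TMM. The quasi-likelihood test of edgeR 4.0.16 (R 4.3.3) was fitted to all 16 libraries with group as the only term, and p-values were adjusted by the Benjamini-Hochberg method over 13614 genes. CPM are TMM-scaled, and log2 levels use a prior count of 2. Alternatives used DESeq2 1.42.0 and limma 3.58.1, other scalings and filters, the set of library totals, a replicate block and the omission of each library. No pair of replicates agreed within sampling noise, the lowest chi-square per degree of freedom being 1.77. It was 59.9 to 99.5 between IRV 1 or 2 and IRV 3 or 4, but 7.23 for IRV 1 and 2 and 8.66 for IRV 3 and 4. The IRV group thus split along the sets of library totals. The submitters' sample codes divide that group at the same place, so code and total cannot be told apart there. In IRP the highest value was 51.7, for IRP 1 and 2. The fit was also run on simulated counts. The genes named are the 9 claudins, the other claudins that passed the filter, up to 3 genes of a list by smallest p, and the 2 genes nearest in profile to each claudin. Slc12a1 was named outside that rule after its values were seen. The claudins, the gene lists and the split of library totals were chosen with earlier results of these data known. Shares of the summed claudin level were added after seeing the data. A gene that the rule for named genes would include is not reported here.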

Additional observations from a re-analysis of the deposited data

Results flagged for a closer look

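In 72 sets of 4 libraries, the claudin levels and the levels relative to a segment list were searched for a library far from the other 3 of its group. Of these, 7 were found, and chance gives about 1 in 20 sets.

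Cldn2 had 269.6 CPM in IRP 2, where the other IRP libraries had 207.8 to 211.9. Cldn8 had 24.65 CPM in IRP 1, where the others had 43.59 to 47.29. In the same library, Cldn10 relative to the thick ascending limb list was 0.06, where the others had -0.82 to -0.77. These values belong to the 2 IRP libraries with the highest and the lowest injured tubule level of that group. Cldn8 had 36.91 CPM in NV 3, where the others had 30.89 to 31.63, and relative to the principal cell list it was 0.49 there, where the others had 0.13 to 0.19. Cldn8 relative to that list was 0.33 in IRV 1, the library with the smallest total, where the others had 0.78 to 0.82. Cldn7 relative to that list was -4.14 in NP 1, on a single count, where the others had -2.40 to -2.13.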

How the results depend on the processing

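In IRV against NV the number of claudins called fell to 4 with the set of library totals as a covariate and to 4 within the smaller totals. In IRP against NP it fell to 3 with that covariate, which is estimated from the IRV libraries alone. Leaving out single libraries gave 5 to 7 claudins in IRV against NV and 6 to 7 in IRP against NP. PJ34 comparisons and the interaction stayed at 0 claudins in every alternative run. Over all genes, calls in IRP against NP were 450 with the covariate and 16733 with no filter, those in IRV against NV were 5962 with library totals, 1915 with the covariate and 1807 within the smaller totals, and those in IRP against IRV were 422 with library totals, 1093 with no filter and up to 1460 without IRV 3 or IRV 4. Interaction calls reached 419 without IRV 3, and NP against NV gave at most 4.

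The sign turned with library totals for Cldn8 (0.44) and Cldn10 (0.083) in IRV against NV, Cldn2 (0.062) and Cldn10 (0.41) in IRP against NP and Cldn19 (0.014) in NP against NV, and without the filter for Cldn8 (0.25) in IRV against NV and Cldn10 (0.28) in IRP against NP. Such settings shift all genes together. The covariate turned Cldn2 to -0.0439 in IRP against IRV and to -0.0059 in the interaction, and the larger totals alone gave -0.0438 in IRP against IRV. The cause was not tested. Leaving out 1 library turned only differences that were never called. In NP against NV, the ranges were -0.11 to 0.0149 for Cldn10, -0.31 to 0.28 for Cldn19, -0.52 to 0.0874 for Cldn3, -0.75 to 0.0761 for Cldn4, -0.43 to 0.11 for Cldn7 and -0.15 to 0.0047 for Cldn8. In IRP against IRV they were -0.055 to 0.12 for Cldn2 and -0.0756 to 0.21 for Cldn3, in IRV against NV -0.23 to 0.0073 for Cldn8, and in the interaction -0.28 to 0.0931 for Cldn16 and -0.0129 to 0.17 for Cldn2.

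With the replicate number as a block, 7 claudins were called in IRV against NV, 6 in IRP against NP and 0 elsewhere, as without it. Libraries of the same number had correlated deviations of -0.23 to 0.26, so the numbers were not taken as pairs. Low counts limit Cldn3, Cldn4, Cldn7 and Cldn16 in uninjured kidneys.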
